A study of Mus musculus with 5 samples.

Results

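The 37 genes described here make fatty acids and triglycerides, or control, export or break down the product. They were taken as the rows of the normalised count table whose Ensembl identifiers map to a fixed list of symbols, grouped by pathway step. This list and the comparison lists used below were chosen with earlier results of these data known. All 37 were found among the 55397 genes of the table, and all 37 were among the 17105 genes abundant enough to be tested. The table holds bulk RNA sequencing of liver tumours in 5 libraries, 2 Control and 3 with late Prox1 overexpression (Prox1 OE). The comparison asks what raising the hepatocyte transcription factor PROX1 does to established bile duct-like tumours. Female C57BL/6N mice aged 8 weeks received plasmids by hydrodynamic tail vein injection, a fast, large-volume injection that carries DNA into hepatocytes. Every mouse of both groups received Sleeping Beauty transposase and the transposons pT3-EF1a-AKT and pT3-EF1a-NICD-IRES-rtTA, so that Akt and activated Notch1 (NICD) were present in Controls too. The Prox1 OE group also received pT3-Tre-FLAG-mmProx1-IRES-GFP, and the Control group the empty vector pT3-Tre-IRES-GFP. Both groups were fed doxycycline (6.25% doxycycline hyclate diet) from day 21, to turn the transgene on from week 3, planned to last to week 4. Tumours were dissected a week after induction or at a humane endpoint, and the labels do not say which applied to which tumour.

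Several features limit the groups as a model. The oncogenes were driven by the EF1a promoter, and the Prox1 transgene could be on only where the reverse transactivator and the Prox1 transposon had both entered a cell. The RNA came from whole dissected tumours with their stroma and any enclosed liver. The labels call the cells transformed hepatocytes. They do not say that each library came from its own mouse, so p-values measure the spread between these libraries, which may be partly technical.

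In the liver, fatty acids are built in the cytosol from acetyl-CoA, which ATP citrate lyase releases from exported citrate. Acetyl-CoA carboxylase makes malonyl-CoA, fatty acid synthase joins the units into palmitate with NADPH, and elongases and desaturases lengthen and unsaturate it. Acyl-CoA is then esterified stepwise onto glycerol phosphate to give triglyceride, which is stored in droplets or loaded onto very low density lipoprotein. Insulin acts through SREBP1 and sugar through ChREBP to switch these genes on together, and AKT is a step of the insulin pathway.

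Recovered reads per library ran from 48740863 to 56629477. A normalised count is a read count divided by the library's size factor, and 1 read was worth 0.822 to 1.18 normalised counts, so that counting error was small for all but the least abundant of the genes. Prox1, which checks the labels, had 4153 and 4664 normalised counts in Control 1 and 2 and 48090, 11113 and 8231 in Prox1 OE 1, 2 and 3. The groups did not overlap, although the log2 fold change of 1.90 (SE 0.66) missed the threshold of 0.05 (limma adjusted p 0.0607). Prox1 OE 1 stood apart with the most Prox1, and reads from the plasmid and the endogenous gene were not separated.

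Most of these genes were more abundant in Prox1 OE. Of the 37, 31 rose (83.8%) and 1 fell at an adjusted p under 0.05, where 17.1% of all tested genes were called higher, 16.2% lower and 33.3% either way. A further count took those that rose by at least 1 on the log2 scale, which held for 22 of the 37 and for 8.35% of all tested genes. All 3 Prox1 OE values lay above both Control values for 33 genes (30.9% of all genes) and below both for 3 (32.4% of all genes), and 1 gene, Me1, overlapped. The median log2 fold change was 1.29, against -0.015 for all 17105 genes. Because the list was chosen with earlier results known, its difference from all genes is a description and not a test of the list. Fold changes are on the scale of log2(normalised count + 1). In bulk RNA, a different number of cells of a type and a different amount of RNA per cell cannot be told apart. With scaling to total counts the median of all genes moved to -0.45 and that of the 37 to 0.86, with 25 higher and 3 lower, while all genes split into 1472 higher and 6855 lower against 2933 and 2769 in the reported fit. The calls of Elovl1, Tecr, Srebf1, Agpat3, Dgat1 and Pnpla2 were lost in that scaling. There 34 of the 37 still lay above the median of all genes, the same number as in the reported fit. The calls depended on Control 1. Without it 6 of the 37 were called higher and 0 lower (median log2 fold change 1.11), 26 of the 32 calls were lost, and 1158 genes were called in all. Without Prox1 OE 1, the library with the most Prox1, 31 were higher and 2 lower. The 6 were Acacb, Thrsp, Dgat2, Mogat1, Mttp and Pnpla5, and these were also called in all 16 alternative fits.

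**Figure D1:**
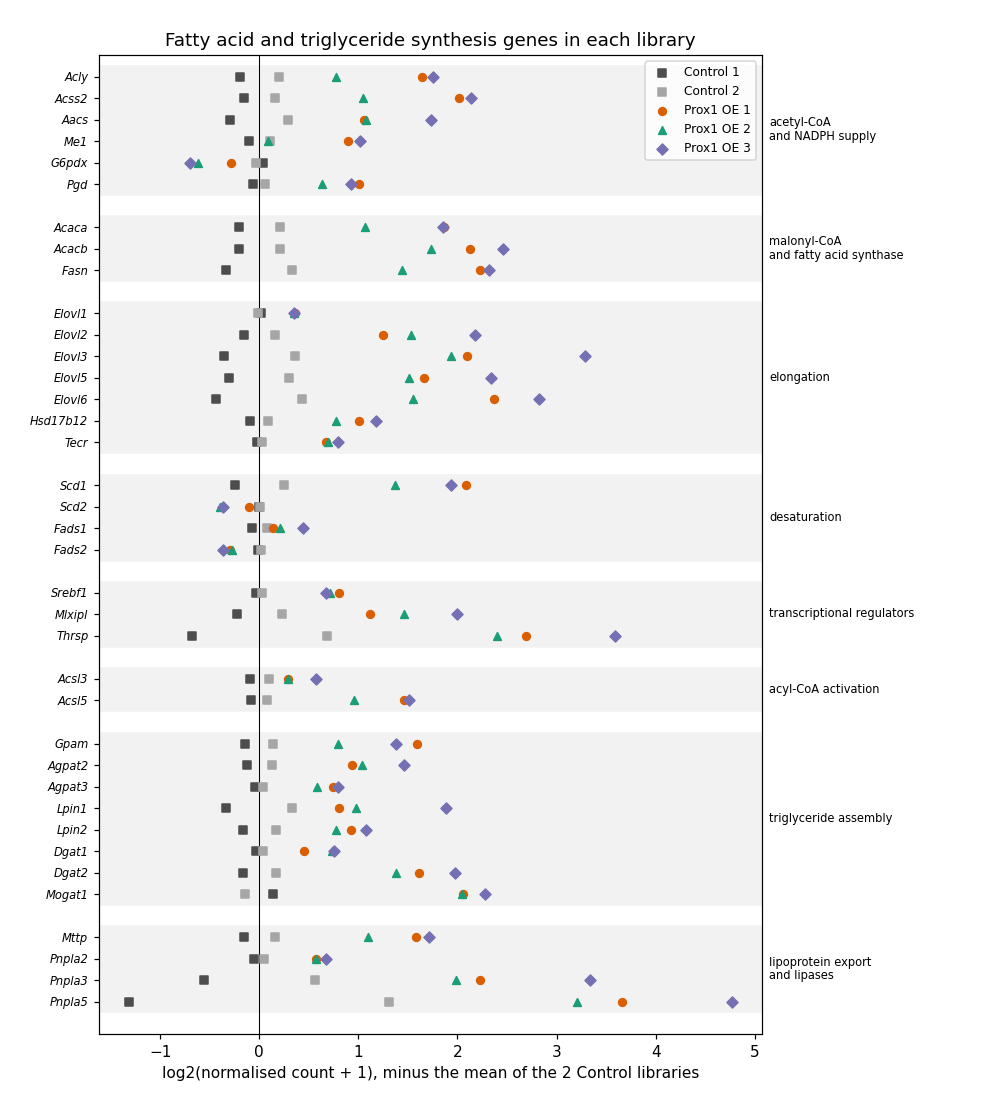
Each of the 37 genes is a row, grouped by pathway step, and each point is a library, plotted as log2(normalised count + 1) minus the mean of the 2 Control libraries. Prox1 OE points lie to the right of both Control points for 33 genes, to the left for G6pdx, Scd2 and Fads2, and overlap for Me1. With scaling to total counts the mean difference of Elovl1, Fads1 and Acsl3 falls below 0.

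**Figure D2:**
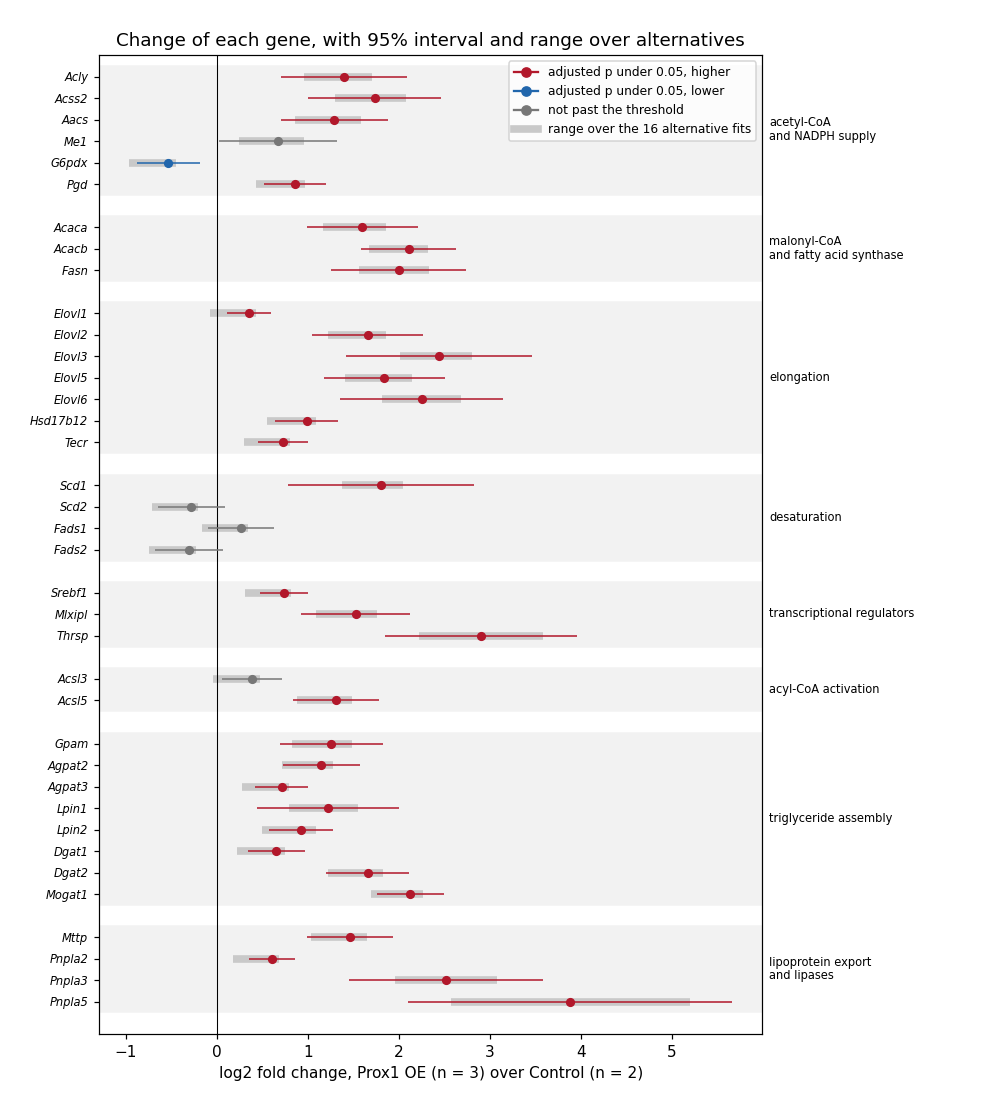
Points are log2 fold changes of Prox1 OE (n = 3) over Control (n = 2), thin lines are 95% intervals of the reported limma fit, and grey bars span the 16 alternative fits. The changes run from -0.54 for G6pdx to 3.88 for Pnpla5, and the grey bars of Elovl1, Fads1 and Acsl3 cross 0.

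The first step supplies acetyl-CoA and NADPH, and 4 of its 6 genes rose, 1 fell and 1 was not called (median 1.07). Acly (chr11:100476353-100528000, mm10), which encodes ATP citrate lyase, had 10018 and 13104 normalised counts in Control and 35741, 19623 and 38651 in Prox1 OE. It rose by a log2 fold change of 1.39 (SE 0.30, adjusted p 0.0121), and its lowest Prox1 OE library was Prox1 OE 2. Acss2 (chr2:155517948-155585724) makes acetyl-CoA from acetate and had 4325 and 5378 against 19456, 9978 and 21171 normalised counts. Its log2 fold change of 1.73 (SE 0.31, adjusted p 0.0068) again came with Prox1 OE 2 as the lowest of the group. Aacs (chr5:125475814-125517410), the cytosolic acetoacetyl-CoA synthetase that feeds ketone carbon into lipid, had 1588 and 2378 against 4055, 4091 and 6463. It rose by 1.29 (SE 0.25, adjusted p 0.0088), with Prox1 OE 3 highest. Without Control 1 the log2 fold changes of Acly, Acss2 and Aacs were 1.20, 1.57 and 1.00, with adjusted p of 0.111, 0.0672 and 0.0853.

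The other 3 genes encode cytosolic sources of NADPH. Pgd, of the oxidative pentose phosphate pathway, rose from 6349 and 6901 to 13283, 10285 and 12593 normalised counts (log2 fold change 0.86, adjusted p 0.00549; without Control 1 0.80, adjusted p 0.0712). G6pdx, glucose-6-phosphate dehydrogenase, which opens the same pathway, had 2712 and 2593 in Control and 2173, 1723 and 1634 in Prox1 OE, all below Control. It was the only 1 of the 37 called lower, at -0.54 (SE 0.15, adjusted p 0.0289). That call held in only 1 of the 5 fits that left out a library, the fit without Prox1 OE 1 (-0.66, adjusted p 0.00513), and adjusted p was 0.192, 0.13, 0.0877 and 0.0709 without Control 1, Control 2, Prox1 OE 2 and Prox1 OE 3, where the log2 fold changes were -0.50, -0.57, -0.49 and -0.45. It was also lost with no filter on low counts (adjusted p 0.0507) and without the trend (adjusted p 0.0729). Antisense exons of Ikbkg overlap 13.6% of the G6pdx exon bases, Ikbkg had 221% of the count of G6pdx, and it rose by 0.51 (adjusted p 0.0194). How the counting treated strand is not given in the sources used here. Pgls, the lactonase that acts between the products of G6pdx and Pgd and is not among the 37, rose by 0.54 (adjusted p 0.0414), as did Idh1, another cytosolic source of NADPH outside the 37, by 1.02 (adjusted p 0.00558). Me1, the cytosolic malic enzyme, had 21538 and 25054 against 43070, 24762 and 47140 normalised counts, with Prox1 OE 2 between the Controls. Its log2 fold change of 0.67 (95% interval 0.02 to 1.32) was not called (adjusted p 0.101), but passed without Prox1 OE 2 (0.96, adjusted p 0.0184) and with DESeq2 (0.72, adjusted p 0.0253).

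All 3 genes of malonyl-CoA and palmitate synthesis rose (median 2.00). Acaca (chr11:84129672-84401651), the cytosolic acetyl-CoA carboxylase that commits carbon to fatty acid synthesis, had 3272 and 4356 normalised counts in Control and 13716, 7903 and 13669 in Prox1 OE. The rise was 1.59 (SE 0.26, adjusted p 0.00502). Acacb (chr5:114146535-114250761), the carboxylase at the mitochondrial surface whose malonyl-CoA restrains fatty acid import for oxidation, had 1391 and 1861 against 7030, 5331 and 8839. It rose by 2.10 (SE 0.22, adjusted p 0.00242), with every Prox1 OE value far above both Controls. Fasn (chr11:120805846-120824547), fatty acid synthase itself, had 19235 and 30600 against 113645, 65807 and 121114 normalised counts. The log2 fold change was 2.00 (SE 0.32, adjusted p 0.00468), and Fasn took 0.0444% and 0.0668% of reads in Control and 0.198%, 0.114% and 0.185% in Prox1 OE. Without Control 1 Acaca changed by 1.39 (adjusted p 0.0563) and Fasn by 1.66 (adjusted p 0.0616).

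Promoter sequence is shown for Fasn, the enzyme the pathway is named for, and further on for Pnpla5 and Pnpla3, which are neighbours that changed together. The 250 bases before the RefSeq transcription start (GRCm38.p6, the assembly of mm10) were searched on both strands for CACGTG, the E-box that ChREBP, USF and other basic helix-loop-helix factors can bind, for CCAAT, the box of NF-Y, and for an SREBP-like element, TCACNCCAC. RefSeq windows matched 31 of the 37 genes (41 windows), and those of Dgat1, Dgat2, Elovl3, Fads1, Scd1 and Scd2 were not analysed here. CCAAT was in 46.3% of the 41 windows and 33.8% of all 32851 windows, CACGTG in 9.76% and 6.02%, and TCACNCCAC in 2.44% and 1.05%. A match is a match of letters and was not tested as a site. The Fasn window (chr11:120824548-120824797, minus strand, written 5′ to 3′ towards the start) has CCAAT, capitals in either direction, beginning 90, 62 and 59 bases before the start, the last pair sharing letters, and no CACGTG.
Fasn: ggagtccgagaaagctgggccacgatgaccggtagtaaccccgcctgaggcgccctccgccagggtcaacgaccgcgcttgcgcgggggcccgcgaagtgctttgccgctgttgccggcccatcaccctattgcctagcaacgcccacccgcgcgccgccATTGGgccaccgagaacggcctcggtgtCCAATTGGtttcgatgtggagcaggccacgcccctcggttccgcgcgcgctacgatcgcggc

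All 7 elongation genes rose, by amounts that differed widely (median 1.65, from 0.35 to 2.44). Elovl6 (chr3:129532355-129638495), which lengthens palmitate towards stearate, had 1952 and 3557 normalised counts in Control and 13584, 7716 and 18691 in Prox1 OE. It rose by 2.25 (SE 0.38, adjusted p 0.00579). Elovl5 (chr9:77917364-77984519), an elongase of polyunsaturated chains, had 10800 and 16440 against 42061, 37995 and 67212, a rise of 1.83 (SE 0.28, adjusted p 0.00429). Elovl2 (chr13:41182381-41220405) acts on longer polyunsaturated chains and had 2530 and 3157 against 6721, 8154 and 12826 normalised counts. Its rise was 1.65 (SE 0.26, adjusted p 0.0045), with Prox1 OE 3 well above the other two. Elovl3 (chr19:46131897-46135694), an elongase of saturated and monounsaturated very long chains, was scarce, with 40.3 and 67 in Control and 225, 202 and 515 in Prox1 OE. It rose by 2.44 (SE 0.43, adjusted p 0.00664).

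Elovl1, whose enzyme extends saturated very long chains, had 3496 and 3409 against 4422, 4391 and 4390 normalised counts. The groups were tight and apart, but its small rise of 0.35 (adjusted p 0.0345) became -0.081 with scaling to total counts and was called in only 1 of the 5 fits that left out a library, without Prox1 OE 1 (adjusted p 0.023, against 0.0677 to 0.219 in the others). Hsd17b12 and Tecr, the ketoacyl and enoyl reductases that every elongation cycle shares, rose by 0.98 (adjusted p 0.00408) and 0.72 (adjusted p 0.00484). Without Control 1 the adjusted p of Elovl2, Elovl3, Elovl5, Elovl6, Hsd17b12 and Tecr was 0.0507, 0.0662, 0.0529, 0.0567, 0.0581 and 0.0749, with log2 fold changes of 1.49, 2.08, 1.53, 1.81, 0.89 and 0.70.

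Of the 4 desaturation genes 1 was called, higher (median -0.010), where 33.3% of all tested genes were called. With scaling to total counts 3 of the 4 were called, and 2 with DESeq2. Scd1 (chr19:44394455-44407879), the main liver stearoyl-CoA desaturase that makes oleate and palmitoleate, had 302492 and 425029 normalised counts in Control and 1525472, 923897 and 1375333 in Prox1 OE. It rose by 1.80 (SE 0.44, adjusted p 0.019), and with either Control left out the call was lost, at 1.55 (adjusted p 0.297) without Control 1 and 2.04 (adjusted p 0.139) without Control 2. Its neighbour Scd2 (chr19:44293674-44306864), the form better known from brain and newborn liver, had 43003 and 43164 against 40175, 32793 and 33520. All 3 Prox1 OE values lay under Control, and the log2 fold change of -0.29 (SE 0.16, 95% interval -0.65 to 0.08) was not called (adjusted p 0.198). It passed without Prox1 OE 1, at -0.38 (adjusted p 0.0492), and with scaling to total counts, at -0.72 (adjusted p 0.00828). Scd genes are close copies, and reads that fit several of them may have been split or dropped.

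Fads1 and Fads2, the front-end desaturases that make polyunsaturated fatty acids such as arachidonate, were also not called. Fads1 had 26805 and 29792 against 31179, 32723 and 38354 normalised counts, a log2 fold change of 0.26 (95% interval -0.10 to 0.63, adjusted p 0.224) that became -0.17 with scaling to total counts. Fads2 had 71185 and 72931 against 58522, 59540 and 56062, all Prox1 OE values below Control (log2 fold change -0.31, 95% interval -0.69 to 0.06, adjusted p 0.168), and it passed with DESeq2 (-0.31, adjusted p 0.0161) and with scaling to total counts (-0.74, adjusted p 0.0055). The intervals of Scd2, Fads1 and Fads2 all end at or below 0.63 on the log2 scale, whereas that of Scd1 runs from 0.78 to 2.82.

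Scd1 also dominated the pathway's RNA. It took 0.699% and 0.928% of all reads in Control, where it was the 7th and 6th most abundant gene, and 2.66%, 1.61% and 2.10% in Prox1 OE, where it was 2nd, 3rd and 2nd. The 37 genes together took 1.61% ± 0.22 (SD, n = 2) of reads in Control and 3.26% ± 0.67 (SD, n = 3) in Prox1 OE, and the 36 others 0.793% ± 0.054 and 1.14% ± 0.17 (95% Wilson intervals for single libraries within 0.00506 percentage points of the value, covering counting error only). Per kilobase of exon, Scd1 was the most abundant of the 37 in both groups, with means of 74358 normalised counts per kilobase in Control and 260609 in Prox1 OE. Fads2 came next in Control, at 21869, and was the third in Prox1 OE, at 17615. Thrsp went from rank 11 (2499) to rank 2 (17839), Elovl5 from 8 (3867) to 4 (13938) and Fasn from 12 (2276) to 7 (9152). Scd2 went from rank 3 (7885) to 11 (6496) and G6pdx from 21 (861) to 34 (598), these ranks being descriptions of group means with no test. Pnpla5 and Elovl3 were the least abundant, at 14.8 and 27.1 normalised counts per kilobase in Control.

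**Figure D3:**
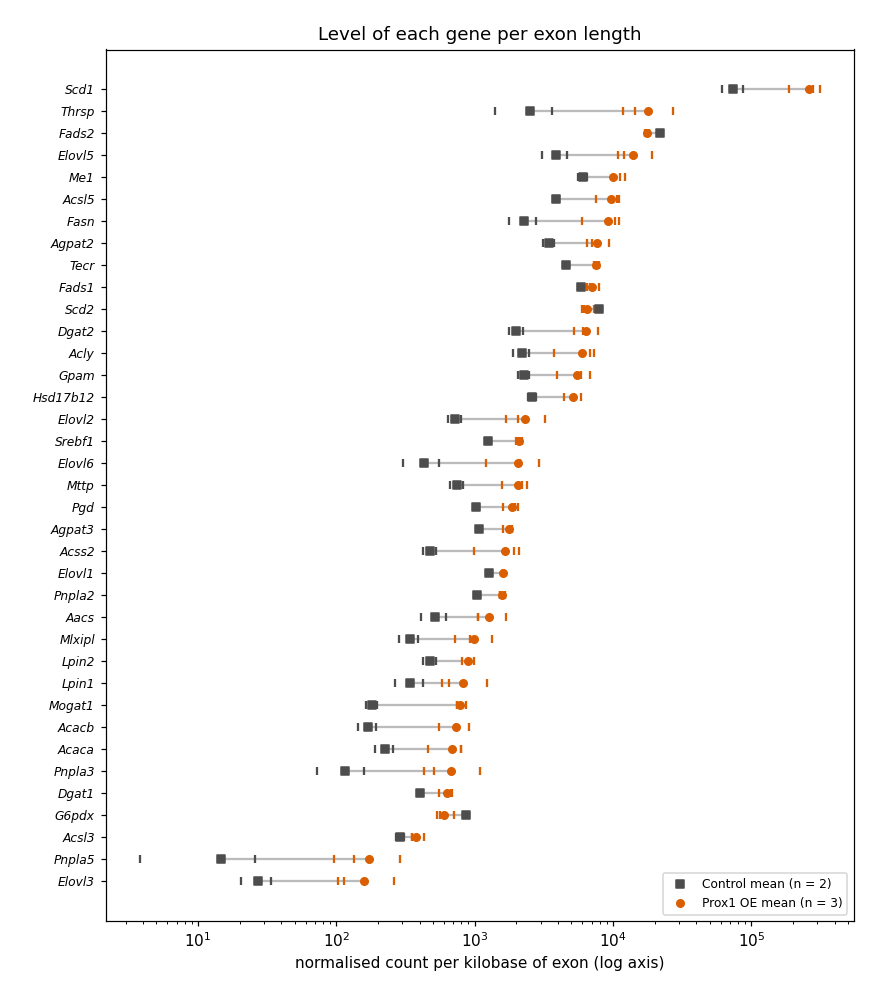
Normalised counts per kilobase of exon on a log axis, with the group means as large symbols, single libraries as ticks, and genes in order of the Prox1 OE mean. Scd1 lies above every other gene in both groups, and Thrsp and Elovl5 pass Scd2 and Fads1.

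All 3 regulators rose (median 1.52). Srebf1 (chr11:60199089-60222581), which encodes the SREBP1 factors, had 6887 and 7196 normalised counts in Control and 12316, 11547 and 11242 in Prox1 OE. The rise of 0.73 (SE 0.11, adjusted p 0.00416) was modest and the libraries lay close together within each group. Mlxipl (chr5:135089890-135138382), which encodes the sugar-responsive factor ChREBP, had 1581 and 2173 against 4022, 5100 and 7369. It rose by 1.52 (SE 0.26, adjusted p 0.00554), with Prox1 OE 3 highest. Thrsp (chr7:97412938-97417730), a thyroid hormone-responsive protein tied to lipogenesis, had 3067 and 7873 against 31826, 25994 and 59331 normalised counts. It rose by 2.90 (SE 0.45, adjusted p 0.00439), from 2.22 without Control 1 to 3.58 without Control 2. Without Control 1 Srebf1 and Mlxipl missed the threshold (0.70, adjusted p 0.0663, and 1.29, adjusted p 0.0596), and Srebf1 missed it with scaling to total counts (0.30, adjusted p 0.105).

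Of the acyl-CoA synthetases, which activate free fatty acids, Acsl5 (chr19:55251938-55297720) had 17841 and 19925 against 51971, 36508 and 53592 normalised counts. It rose by 1.31 (SE 0.20, adjusted p 0.00418; without Control 1 1.23, adjusted p 0.0595). Acsl3, the form found on nascent lipid droplets, had 1178 and 1341 against 1539, 1533 and 1866, and its log2 fold change of 0.38 (95% interval 0.06 to 0.71) was not called (adjusted p 0.0711), passed with upper-quartile factors (0.46, adjusted p 0.0393) and became -0.048 with scaling to total counts.

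All 8 genes of triglyceride assembly rose (median 1.18, from 0.65 to 2.12). Gpam (chr19:55067268-55127238), the mitochondrial acyltransferase that starts glycerolipid synthesis, had 13608 and 16576 normalised counts in Control and 45366, 26094 and 38979 in Prox1 OE, a rise of 1.26 (SE 0.24, adjusted p 0.0086). Agpat2 (chr2:26593057-26604417), which adds the next acyl chain, had 6668 and 7956 against 13921, 14969 and 20066, a rise of 1.15 (SE 0.18, adjusted p 0.00466). Lpin1 (chr12:16535669-16610966), a phosphatidate phosphatase, had 2553 and 4058 against 5606, 6314 and 11851. It rose by 1.22 (SE 0.33, adjusted p 0.0287), and its adjusted p was 0.209 without Control 1 (0.88) and 0.0638 without Prox1 OE 2 (1.34), and 0.055 and 0.0789 with no filter and without the trend. Its relative Lpin2 rose by 0.92 (adjusted p 0.00491), and Agpat3, another acyltransferase of this family, by 0.71 (adjusted p 0.00606).

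Dgat2 (chr7:99153658-99182719), the diacylglycerol acyltransferase that esterifies newly made fatty acid, had 5480 and 6880 normalised counts in Control and 18725, 16005 and 24106 in Prox1 OE. It rose by 1.65 (SE 0.20, adjusted p 0.00259). Dgat1, the other acyltransferase of the last step and unrelated in sequence, rose by 0.65 (SE 0.13, adjusted p 0.011), from 1204 and 1265 to 1691, 2054 and 2088. Mogat1 (chr1:78510991-78538173), a monoacylglycerol acyltransferase, had 309 and 253 against 1165, 1155 and 1360. Its rise of 2.12 (SE 0.16, adjusted p 0.00138) had the smallest adjusted p of the 37. An antisense gene, BC035947, shares 12.8% of the Mogat1 exon bases, had 3.8% of its count and rose by 1.81 (adjusted p 0.0196), and its part in the Mogat1 count was not tested. Without Control 1 the adjusted p of Gpam, Agpat2, Agpat3, Lpin2 and Dgat1 was 0.0934, 0.0609, 0.0855, 0.0675 and 0.111, with log2 fold changes of 1.11, 1.02, 0.67, 0.76 and 0.61. Without Control 2 Agpat3 (0.75, adjusted p 0.0503) and Dgat1 (0.69, adjusted p 0.0704) also missed the threshold.

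The 4 genes of export and lipolysis rose as well (median 1.99). Mttp (chr3:138089854-138144968), the transfer protein that loads triglyceride onto apolipoprotein B, had 4104 and 5081 normalised counts in Control and 13698, 9741 and 14920 in Prox1 OE, a rise of 1.46 (SE 0.20, adjusted p 0.00323). Pnpla2, the main triglyceride lipase of lipid droplets, rose by 0.61 (adjusted p 0.00657; without Control 1 0.55, adjusted p 0.0941). Pnpla3 (chr15:84167837-84187236), a droplet protein induced by feeding, had 113 and 247 against 782, 662 and 1697. Its rise was 2.52 (SE 0.46, adjusted p 0.00699), or 1.95 without Control 1 (adjusted p 0.0628). Pnpla5 (chr15:84112356-84123175), a less studied relative, had 8.22 and 55.9 normalised counts in Control and 289, 210 and 625 in Prox1 OE. It had the largest log2 fold change of the 37, 3.88 (SE 0.76, adjusted p 0.00906), and the size depended on the Controls, being 2.57 without Control 1 and 5.19 without Control 2.

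Pnpla5 and Pnpla3 lie on chromosome 15 with 44661 bases between them, on opposite strands and pointing away from each other, and no protein-coding gene is annotated in between. Their windows before the start are shown because both were scarce in Control and rose in every Prox1 OE library. Capitals mark CACGTG, 137 bases before the start of Pnpla5, and CCAAT in either direction, 177 and 16 bases before the start of Pnpla5 (chr15:84123176-84123425, minus strand) and 99 before that of Pnpla3 (chr15:84167566-84167815, plus strand).
Pnpla5: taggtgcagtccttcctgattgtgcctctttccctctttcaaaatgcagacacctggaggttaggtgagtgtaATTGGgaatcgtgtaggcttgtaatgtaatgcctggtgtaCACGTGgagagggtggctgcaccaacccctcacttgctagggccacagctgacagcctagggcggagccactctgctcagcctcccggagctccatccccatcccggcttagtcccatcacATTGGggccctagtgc
Pnpla3: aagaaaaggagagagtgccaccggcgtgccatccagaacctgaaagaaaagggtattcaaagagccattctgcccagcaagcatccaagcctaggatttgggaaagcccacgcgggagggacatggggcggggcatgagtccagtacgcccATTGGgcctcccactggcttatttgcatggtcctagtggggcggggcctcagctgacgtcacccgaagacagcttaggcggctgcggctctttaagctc

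Ratios between related enzymes were compared within libraries, where the scaling of the library cancels apart from the pseudocount of 1 on the log2 scale. Which gene stands on top of each ratio was chosen with earlier results known, so the direction of a ratio is a description. With 2 against 3 libraries the exact two-sided permutation test over the 10 splits cannot give a p under 0.1, so none of the 9 ratios could pass the threshold. The ratio of Scd1 to Scd2 normalised counts was 7.03 and 9.85 in Control and 38.0, 28.2 and 41.0 in Prox1 OE. This was a difference of 2.08 on the log2 scale (p 0.1, adjusted p 0.18 over 9 ratios), without overlap. The ratio of Dgat2 to Dgat1 was 4.55 and 5.44 against 11.1, 7.79 and 11.5 (p 0.1, adjusted p 0.18), again without overlap. Elovl3 over Elovl1, Pnpla3 over Pnpla2 and Acsl5 over Acsl3 were higher by 2.09, 1.91 and 0.93 (each p 0.1 and adjusted p 0.18). Acacb over Acaca and Agpat2 over Agpat3 were higher by 0.51 and 0.44 (each p 0.2, adjusted p 0.257). Elovl6 over Elovl5 and Lpin1 over Lpin2 overlapped between the groups (p 0.3 and 0.4). In all, 7 of the 9 ratios did not overlap between the groups. The pairs were chosen with results known, and the share among other gene pairs was not tested, so nothing is read from that count. These ratios need no length correction for a comparison between groups, but their size does not compare the amounts of the paired transcripts.

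**Figure D4:**
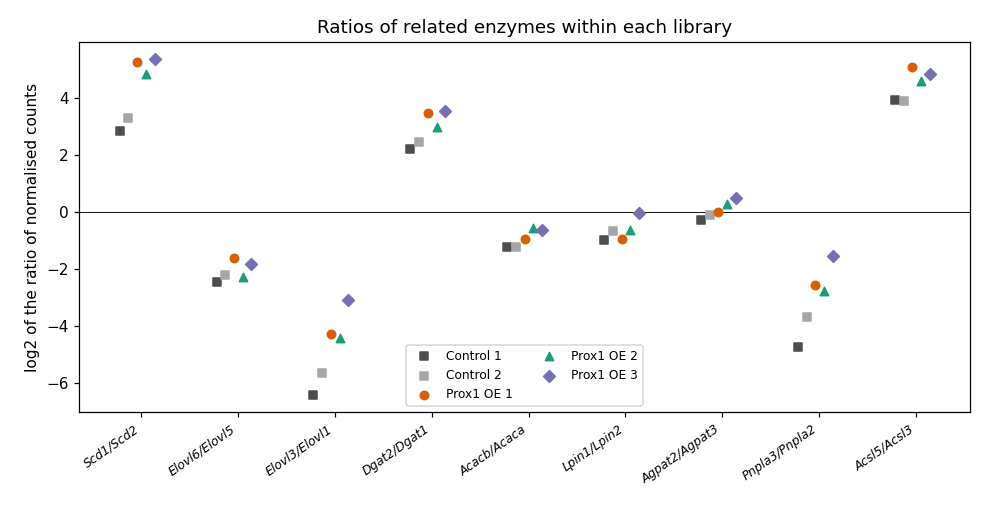
The log2 ratio of normalised counts of related enzymes in each library. Prox1 OE libraries lie apart from both Controls in 7 of the 9 ratios, pairs that were chosen with results known, with differences of 2.08 for Scd1 over Scd2 and 2.09 for Elovl3 over Elovl1, and overlap with Control for Elovl6 over Elovl5 and Lpin1 over Lpin2.

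Another 45 genes of the same pathway were read from the same fit, of which 43 were tested. Elovl4 and Acsl6 had at most 23 reads in any library. Of the 43, 22 rose, 3 fell and 18 were not called, against 17.1% of all tested genes called higher and 16.2% lower, and the median log2 fold change was 0.45. The largest rises among those with a mean of at least 100 normalised counts over the 5 libraries were G0s2, an inhibitor of the lipase encoded by Pnpla2 (1.85, adjusted p 0.00224), Mogat2, a monoacylglycerol acyltransferase (1.83, adjusted p 0.00758), which reached that mean only through Prox1 OE (146 against 39.3 in Control), and Insig1, which holds SREBP precursors in the endoplasmic reticulum and is itself an SREBP target (1.74, adjusted p 0.00258). Next came Tm6sf2, which takes part in lipoprotein lipidation (1.73, adjusted p 0.00281), Nr1h3, the oxysterol receptor LXR alpha that activates Srebf1 (1.63, adjusted p 0.00235), and Pklr, the liver pyruvate kinase and a ChREBP target (1.55, adjusted p 0.00326). The 3 that fell were Me2, the mitochondrial malic enzyme (-1.06, adjusted p 0.0138), the elongase Elovl7 (-0.70, adjusted p 0.0088), and Mbtps2, the protease that makes the final cut of SREBP (-0.55, adjusted p 0.0323).

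Neighbouring lipid programmes and liver cell markers moved in the same libraries. Against 17.1% of all tested genes called higher and 16.2% lower, 17 of 23 cholesterol synthesis genes rose and 0 fell (median 0.96). Of 18 fatty acid oxidation genes 17 rose and 0 fell (median 1.00), so that most genes of making and of burning fatty acids were higher in the same tumours. No test of these lists against the 37 genes was made. Of 12 hepatocyte markers 10 rose and 0 fell (median 1.70), where 17.1% of all tested genes were called higher. Their summed level was 1184389 to 1740408 normalised counts in Control and 3536096 to 5102425 in Prox1 OE. Of 8 cholangiocyte markers 7 fell and 0 rose (median -1.14), where 16.2% of all tested genes were called lower. Their sum was 758323 to 827412 in Control and 523619 to 707585 in Prox1 OE, most of it Spp1, which was not called (-0.34, adjusted p 0.514). The part of the hepatocyte and cholangiocyte markers in the rise of the lipid genes was not tested.

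Adipocytes also make fat, so their defining markers were read. Lep was at 0 in all 5 libraries, Adipoq and Plin1 had 3.39 normalised counts or fewer, and no untested marker of the 6 had over 8 reads. The only white adipocyte marker abundant enough to test, Adrb3, rose by 1.22 (adjusted p 0.0296), and the sum of the 6 was 42.7 to 48.3 in Control and 76.7 to 135 in Prox1 OE. Against 17.1% of all tested genes called higher, of 8 macrophage markers 4 rose (median 0.85), of 6 endothelial markers 2 rose (0.09), of 6 stellate cell markers 3 rose (0.41) and of 5 tested lymphocyte markers 3 rose (1.14), with 0 lower in each list. All 8 proliferation genes fell (median -0.94), where 16.2% of all tested genes were called lower. Their part in the result was not tested either.

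**Figure D5:**
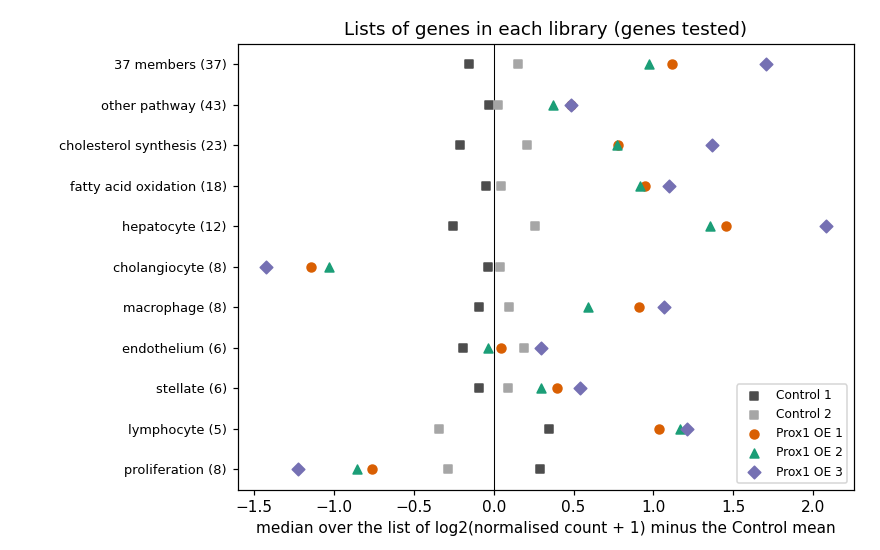
Median over each gene list of log2(normalised count + 1) minus the Control mean, for each library, with the number of genes tested in brackets. The hepatocyte list lies furthest to the right in Prox1 OE, the 37 genes lie at 0.97 to 1.71, and the cholangiocyte and proliferation lists lie to the left of 0, and within each group Control 2 and Prox1 OE 3 hold the highest values of both the 37 genes and the hepatocyte list.

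Libraries of the same group also differed in a way shared by most of the genes. Control 2 was above Control 1 for 34 of the 37, against 53.5% of all tested genes. In Prox1 OE, replicate 3 was highest for 28 of the 37 (75.7%), against 34.5% of all genes, and replicate 2 was lowest for 25 of the 37 (67.6%), against 32.6% of all genes. The median of the 37 relative to Control was 1.12, 0.97 and 1.71 in Prox1 OE 1, 2 and 3. Hepatocyte markers were higher in Control 2 than in Control 1 for 12 of 12 genes and highest in Prox1 OE 3 for 12 of 12. Prox1 OE 1 was lowest for 8 of these 12 and Prox1 OE 2 for 4. Cholesterol synthesis genes were higher in Control 2 for 23 of 23, highest in Prox1 OE 3 for 21 and lowest in Prox1 OE 2 for 14. Prox1 itself was highest in Prox1 OE 1, which held the top value for 8 of the 37 (21.6%) and for 40% of all genes. These orders are descriptions of single libraries and carry no test.

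Exons of 16 of the 37 genes overlap exons of another gene. Beside G6pdx and Mogat1, Gss on the opposite strand covers 3.89% of the Acss2 exon bases, had 77.3% of its count and rose by 0.56 (adjusted p 0.019). Cdc20, opposite Elovl1, covers 1.94% of its bases, had 61.3% of its count and fell by 0.69 on the log2 scale (adjusted p 0.0345). Zdhhc6, opposite Acsl5, covers 8.31% of its bases and had 8.67% of the Acsl5 count. Trmt10a, opposite Mttp, covers 7.36% of its bases and had 4.09% of the Mttp count. On the same strand, Utp14b covers 5.60% of the Acsl3 exon bases and had 15.7% of the Acsl3 count. Gm49513, also on the same strand, covers 6.78% of the Pnpla3 exon bases and had 0.22% of the Pnpla3 count. The share of such reads in each count was not analysed here.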

How the data were processed

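RNA from 2 Control and 3 Prox1 OE tumours was sequenced by the authors from dUTP libraries (strand-preserving) and mapped to mm10 with STAR. The counting tool is not given in the sources used here. The deposited values are a signal, namely the reads of each gene divided by the library's DESeq2 size factor. Whole reads were recovered for 100% of values (tolerance 0.001), with totals of 48740863 to 56629477 per library, and 0 columns of per-sample values were left unassigned. The authors' own comparison table (mean, shrunken log2 fold change, p-values) was not used.

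Genes with a mean of at least 10 normalised counts were tested (17105) with limma 3.58.1 in R 4.3.3, lmFit and eBayes with trend, on log2(normalised count + 1), two-sided, with Benjamini-Hochberg adjustment over all 17105 and a threshold of 0.05. Floors of 3 reads (2.46 to 3.54 normalised counts) and the Wilson intervals of read shares cover counting error only. Intervals of log2 fold changes come from the limma fit and reflect the spread between libraries. GENCODE annotation of GRCm38 matched 55137 of 55397 identifiers (99.5%). Exon length is the union of a gene's exons. Replicates were distinct libraries (chi-square per degree of freedom 39.6 between Controls and 80.4 to 126 between Prox1 OE libraries). On simulated counts for 17105 genes with 200 changed, the test recovered 45% of those changed 2-fold and 83% of those changed 4-fold, with 8 false calls. The simulation changed far fewer genes than the 5702 called in the data, and it had no shift shared by the genes of a library. Its rates therefore need not hold for this comparison.

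The 37 genes, the other lists and the ratios were chosen with earlier results of these data known. All 37 are named. Values in every library are given for called genes with an absolute log2 fold change of 1 or more and for Srebf1, Mlxipl, Fasn, Acaca, Scd1, Scd2 and Dgat2, with some of the rest as examples. Of the other pathway genes, up to 6 in each direction with a mean of at least 100 are named. The alternatives were TMM, upper-quartile and total-count scaling, pseudocounts of 0.1 and 10, no filter, a mean of at least 50, limma without trend, count tests on the whole reads (DESeq2 1.42.0, and the quasi-likelihood test of edgeR 4.0.16), a replicate block, and each library left out.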

Additional observations from a re-analysis of the deposited data

How the results depend on the processing

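The count of genes called higher was 29 to 32 of 37 under every alternative that kept all libraries except scaling to total counts, at 25. It ranged from 6 (without Control 1) to 31 when 1 library was left out. With a Control left out, the other is assumed to vary like the Prox1 OE libraries, and all genes called fell from 5702 to 1158 (without Control 1) and 2270 (without Control 2). The count called lower was 1, and became 3 with the total count, 2 with DESeq2, and 0 with no filter and with limma without trend. It ranged from 0 to 2 when 1 library was left out. The median log2 fold change of the 37 was 0.86 with the total count, and 1.11 to 1.55 when 1 library was left out. Scaling to total counts lost Elovl1, Tecr, Srebf1, Agpat3, Dgat1 and Pnpla2, and no filter and limma without trend each lost Elovl1, Lpin1 and G6pdx. Of 592 values of single genes under the alternatives, 534 kept direction and side of the threshold, 48 (26 genes) kept their sign but lost the call and 7 (4 genes) gained it. The 3 that changed sign did so with the total count, Elovl1 to -0.081 (its call was lost too), Fads1 to -0.17 and Acsl3 to -0.048. All 63 recomputed ratio differences moved by less than 1 SD between libraries.

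A fit with the replicate number as a block, on the 2 numbers both groups share and so without Prox1 OE 3, called 30 genes higher and 1 lower (median 1.20) and 5246 genes in all. Elovl1 was the one call it lost (adjusted p 0.0848). Same-numbered libraries had correlations of deviations of 0.14 and 0.016 over only 2 pairs, and no label ties the numbers, so the samples share only a number.

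Depth limits only the scarcest genes. Pnpla5 had 10 reads in Control 1, so its fold change rests on few molecules there, and 2 Control libraries limit every estimate of spread.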
